A study of Mus musculus with 6 samples.

Results

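The genes described here carry carbon from pyruvate into the mitochondrion, around the citric acid cycle and across the inner membrane with reducing equivalents. They are 43 genes listed by their function, and all 43 were found by symbol among the 15176 genes of the deposited table. The tissue sequenced was iWAT, the inguinal white fat pad under the skin, taken from mice on a high-fat diet (HFD). There were 4 libraries from Steap4f/f mice, which carry a floxed Steap4 gene and are the controls (replicates 1, 2, 5 and 6), and 2 from Steap4AKO mice, which lack Steap4 in adipocytes (replicates 2 and 3). The groups share the diet and the tissue. The sources used here do not give the Cre driver, the age and sex of the mice or the length of the diet. The labels do not state separate mice for the libraries, so p-values measure only the spread between the libraries, which may be technical. Steap4 is a metalloreductase of iron and copper, and the series title concerns thermogenesis and energy expenditure after its loss from adipocytes.

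Pyruvate made by glycolysis enters the mitochondrial matrix through a carrier and is either oxidized to acetyl-CoA by the pyruvate dehydrogenase (PDH) complex or carboxylated to oxaloacetate by pyruvate carboxylase. Citrate synthase joins both products, and the citric acid cycle then oxidizes citrate back to oxaloacetate, passing electrons to NADH and, through succinate dehydrogenase (complex II), to the respiratory chain. In white adipocytes much of the citrate and malate leaves the mitochondrion for fatty acid and glycerol synthesis, and pyruvate carboxylase is abundant there.

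Values are DESeq2-normalized gene counts as deposited, and each library's values sum to between 16573561 and 20547925. The 12 adipocyte markers summed to high values in all 6 libraries. The sums were 786757 to 795205 in the controls and 634842 and 865315 in Steap4AKO replicates 2 and 3. In Steap4AKO replicate 2, Adipoq, Plin1, Fabp4, Pnpla2, Lipe, Pparg and Cebpa were below every control (Adipoq 21862 against 31773 to 43018). Lpl and Lep were above every control there (Lep 55202 against 8106 to 22141), and Plin4, Cidec and Cd36 lay among the controls. In Steap4AKO replicate 3, Lpl, Lep (43433.5), Plin4, Lipe and Pparg were above every control, and Fabp4 was below (139970 against 166490 to 235354). Adipoq, Plin1, Cidec, Pnpla2, Cebpa and Cd36 lay among the controls in replicate 3. Lpl and Lep were thus higher, and Fabp4 lower, in both Steap4AKO libraries. Steap4 itself stood at 17018, 9417, 8310.0 and 8851 in the controls and at 8313 and 8014 in Steap4AKO, so that its transcript did not separate the genotypes (limma, adjusted p = 0.544). Which part of the gene was deleted is not stated, so this value does not check the labels, and Steap4AKO below means the libraries that carry this label. Steap4AKO replicate 2 stood apart from the other 5 libraries. Of 10 epididymis genes listed, 2 were in the table, and Crisp1 was at 8127 there and at 3.3 or less in every other library. The subcutaneous gene Tbx15 was at 1.4 there, at 316 in Steap4AKO replicate 3 and at 661 to 1330 in the controls. Of 6 subcutaneous markers, 4 were below every control in both Steap4AKO libraries (14.4% of all genes). In replicate 2, 7 visceral and mesothelial markers summed to 2351 against 106 to 461 elsewhere, and 8 macrophage markers to 25078 against 7247 to 8101. Of the macrophage markers, Cd14 (308.5) and Cd163 (663) lay within the control range in replicate 2. Skeletal muscle markers separated the genotypes. The sum of 20 of them was 165455, 701923, 539237 and 920036 in the controls and 2968 and 23257 in Steap4AKO, and 16 of the 20 were below all controls in both Steap4AKO libraries. The slow-fibre markers Tnni1 and Myh7 were at 0 in Steap4AKO replicate 2 and replicate 3 in that order, and both were also at 0 in control replicate 1. For this reason the values of both Steap4AKO libraries are given for each member discussed, and the counts also without replicate 2.

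No member passed the threshold of an adjusted p of 0.05 (0 of 43, limma with Benjamini-Hochberg adjustment over 15006 genes), where 0.473% of all genes tested did so, 0.433% in the lower and 0.0400% in the higher direction. At an unadjusted limma p under 0.05, 24 of 43 members were lower in Steap4AKO and 0 higher, against 9.66% of all genes for the lower and 8.45% for the higher direction. The mean log2 value was lower in Steap4AKO for 38 members and higher for 5, against 47.8% of all genes lower. Both Steap4AKO libraries were below every control library for 27 of 43 members, a pattern that 14.4% of all genes showed, and above every control library for 1 member, a pattern of 14.1% of all genes. The median log2 difference of the members was -0.58, on the scale log2(value + 1) and as Steap4AKO minus Steap4f/f, while the median over all genes tested was 0.02. With the mean log2 level of the muscle markers as a covariate the members' median was -0.16. In whole tissue, fewer cells of a type and less RNA per cell cannot be told apart.

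The 2 Steap4AKO libraries did not contribute alike. Relative to the control mean, the members' median stood at -0.79 for Steap4AKO replicate 2 and at -0.37 for replicate 3, and at -0.03, -0.08, -0.01 and 0.10 for control replicates 1, 2, 5 and 6. Replicate 2 was the lower of the pair for 33 members and replicate 3 for 10. The same share was not taken over all genes, whose median stood at 0.02 in replicate 2 and at 0.01 in replicate 3. Replicate 2 was below all 4 control libraries for 34 members, where 28.6% of all genes were, and replicate 3 for 30, where 23.9% were. Without Steap4AKO replicate 2 the median log2 difference was -0.37, 13 members had an unadjusted limma p under 0.05 in the lower direction (5.63% of all genes) and 0 passed the threshold (0.00685% of all genes). Without Steap4AKO replicate 3, 15 members passed it, all lower, where 5.47% of all genes passed in either direction, with a median of -0.79.

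**Figure D1:**
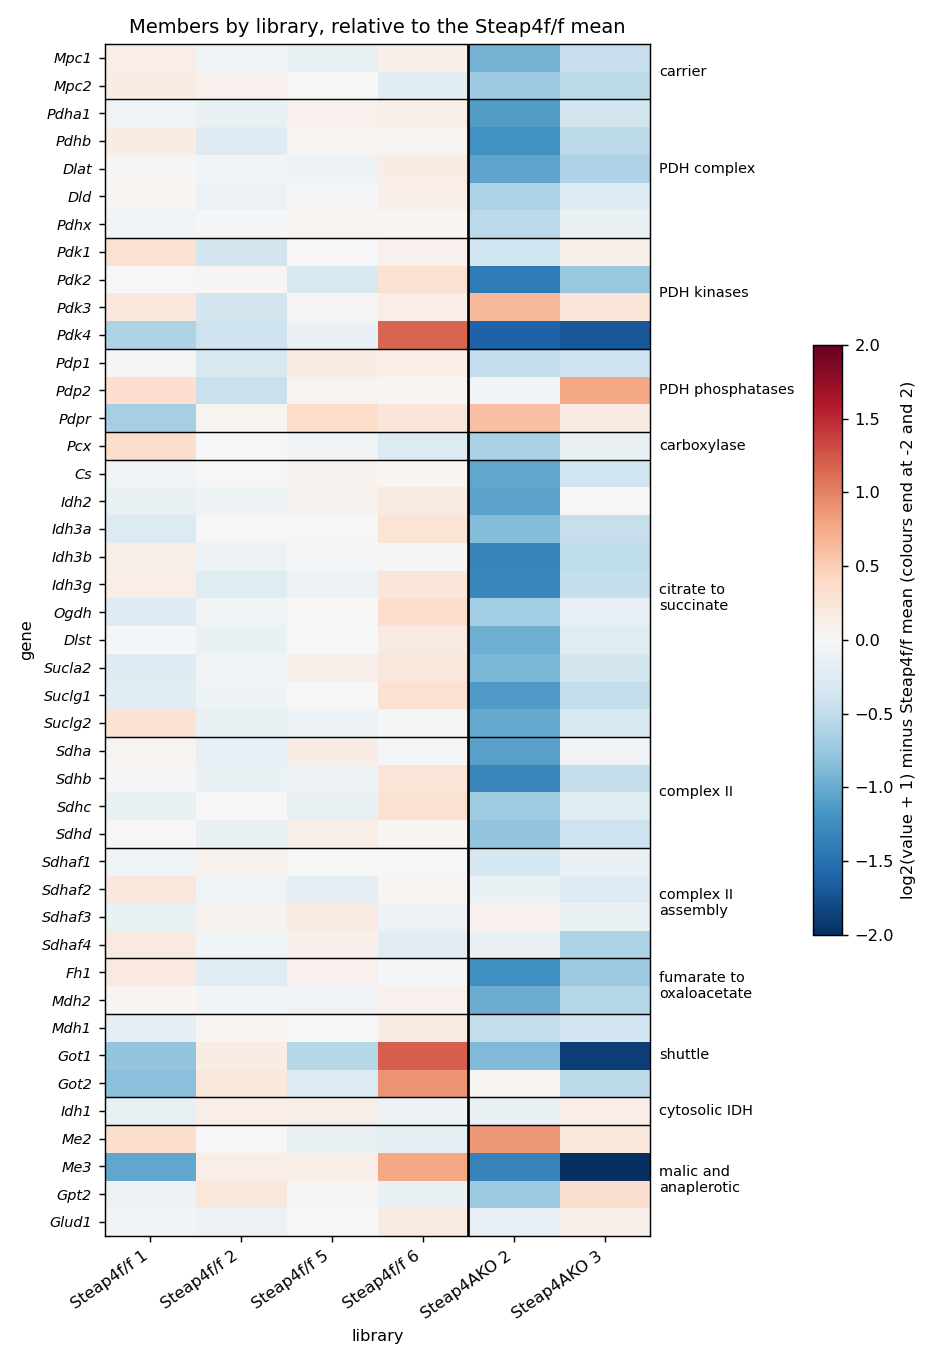
Heat map of log2(value + 1) minus the control mean for the 43 members (rows, grouped by role) in the 6 libraries (columns). Blue is lower and red is higher; Steap4AKO replicate 2 is bluest through the PDH complex, the cycle and complex II, replicate 3 is paler there, and Pdk4, Got1, Got2 and Me3 are red in control replicate 6.

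The windows before the start sites of 6 members are printed to show the promoters of abundant genes of the set beside those of lower genes that hold a motif. Each line gives 250 bases before a RefSeq start site on GRCm38.p6, read 5′ to 3′ on the gene's strand, and of several start sites the most upstream. Pcx, Cs and Ogdh are the members with the highest mean values in the controls. Mpc1, Idh3g and Sdhd, chosen after their values were seen, were lower without overlap between the groups and hold a searched motif, in capitals.
Pcx, chr19:4510222-4510471, plus strand: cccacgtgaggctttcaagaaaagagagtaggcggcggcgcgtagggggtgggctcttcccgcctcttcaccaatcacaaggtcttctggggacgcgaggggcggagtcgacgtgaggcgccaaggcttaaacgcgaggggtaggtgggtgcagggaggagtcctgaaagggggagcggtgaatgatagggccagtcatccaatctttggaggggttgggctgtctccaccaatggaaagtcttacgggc
Cs, chr10:128337477-128337726, plus strand: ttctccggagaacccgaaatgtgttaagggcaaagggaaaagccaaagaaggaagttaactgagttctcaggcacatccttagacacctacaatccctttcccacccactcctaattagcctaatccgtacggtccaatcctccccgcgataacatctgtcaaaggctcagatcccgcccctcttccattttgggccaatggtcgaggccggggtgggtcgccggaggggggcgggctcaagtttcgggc
Ogdh, chr11:6291347-6291596, plus strand: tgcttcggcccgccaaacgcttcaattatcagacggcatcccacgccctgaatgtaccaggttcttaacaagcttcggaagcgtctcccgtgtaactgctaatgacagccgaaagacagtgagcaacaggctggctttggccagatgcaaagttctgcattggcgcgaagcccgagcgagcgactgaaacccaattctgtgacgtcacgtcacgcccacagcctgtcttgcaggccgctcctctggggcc
Mpc1, chr17:8283537-8283786, plus strand: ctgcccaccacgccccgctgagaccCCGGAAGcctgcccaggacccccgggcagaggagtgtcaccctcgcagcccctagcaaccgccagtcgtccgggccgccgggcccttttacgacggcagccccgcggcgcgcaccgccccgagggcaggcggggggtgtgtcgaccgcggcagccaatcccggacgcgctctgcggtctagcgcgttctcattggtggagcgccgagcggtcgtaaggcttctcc
Idh3g, chrX:73786898-73787147, minus strand: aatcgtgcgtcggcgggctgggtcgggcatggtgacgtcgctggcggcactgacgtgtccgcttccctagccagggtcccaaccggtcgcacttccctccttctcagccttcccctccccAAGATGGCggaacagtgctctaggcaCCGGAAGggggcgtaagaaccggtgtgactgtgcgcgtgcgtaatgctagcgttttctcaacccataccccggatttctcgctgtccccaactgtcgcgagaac
Sdhd, chr9:50603850-50604099, minus strand: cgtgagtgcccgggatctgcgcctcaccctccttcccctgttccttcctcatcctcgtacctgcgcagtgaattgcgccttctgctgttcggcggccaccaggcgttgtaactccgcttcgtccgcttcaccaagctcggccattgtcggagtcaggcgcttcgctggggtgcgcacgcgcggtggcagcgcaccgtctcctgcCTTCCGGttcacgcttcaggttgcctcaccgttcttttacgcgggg

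The motifs searched, on both strands, were CCGGAAG (GABP, an ETS factor known for nuclear genes of respiration), CGCATGCG (NRF1), AAGATGGC (YY1) and AAGGTCA (the oestrogen-related receptors). Matches of different motifs do not overlap in the windows printed. Windows were given for 39 members, with 49 start sites in all. CCGGAAG or its reverse complement was in 6 of the 49 windows (12.2%), those of Glud1, Idh3g, Mpc1, Sdhaf2, Sdhaf3 and Sdhd, against 6.91% of all 32851 windows. CGCATGCG was in 2 overlapping windows of Ogdh that are not the one printed (4.08% of windows, against 1.55% of all). AAGATGGC was in that of Idh3g alone (2.04%, against 1.56%) and AAGGTCA in that of Got1 alone (2.04%, against 4.08%). The genes with a CCGGAAG match include Glud1 and Sdhaf3, whose genotype differences were near 0, as well as Mpc1, Idh3g and Sdhd.

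Transcripts of both subunits of the pyruvate carrier had lower values in Steap4AKO. Mpc1 (chromosome 17, 8282904 to 8297661 on GRCm38), a subunit of the mitochondrial pyruvate carrier, was at 6508, 5619, 5359 and 6381 in the controls and at 3103 and 4323 in Steap4AKO. The groups did not overlap, and the group means were 5967 ± 564 (SD, n = 4) and 3713 ± 862 (SD, n = 2), a log2 difference of -0.70 (SE 0.17, limma adjusted p = 0.115). Its partner Mpc2 ranged from 3129 to 4064 in the controls and was at 2218 and 2519 in Steap4AKO, with a log2 difference of -0.63. Both libraries of Steap4AKO were thus low for both subunits of the carrier.

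All 5 genes of the PDH complex lay below all controls in both Steap4AKO libraries, a pattern of 14.4% of all genes. Their median log2 difference was -0.74. Pdha1 encodes the catalytic E1 alpha subunit, is X-linked (X, 160122209 to 160138413) and is the subunit that the kinases phosphorylate. It had 8755, 8276, 9700.0 and 9962 in the controls and 4201 and 7096 in Steap4AKO, a log2 difference of -0.74 (SE 0.22, limma adjusted p = 0.159). Pdhb, the E1 beta subunit, had 5081, 3829, 4731 and 4762 against 1978 and 3183, a log2 difference of -0.87 (SE 0.21, limma adjusted p = 0.111). Dlat, the E2 acetyltransferase core (chromosome 9, 50634633 to 50659780), ranged from 3767 to 4476 in the controls and was at 1952 and 2641 in Steap4AKO. With a log2 difference of -0.83 (SE 0.16) it shared the lowest adjusted p among the members (limma, 0.0658). The E3 subunit Dld, which other dehydrogenase complexes also use, was at 4118 to 4746 against 2860.2 and 3717, and the E3-binding protein Pdhx at 982 to 1049 against 699 and 926. These last 2 subunits had the smallest differences of the complex, at -0.45 and -0.34. In Steap4AKO replicate 3 the median of the complex was -0.37, and in replicate 2 it was -1.05.

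The kinases that switch the PDH complex off split by isoform. Pdk4, known for its induction by fasting, and the widely expressed Pdk2 were lower in Steap4AKO without overlap. Pdk4 (chromosome 6, 5483351 to 5496309) had 3635, 4171, 5063 and 12469 in the controls and 1822 and 1709 in Steap4AKO. Both Steap4AKO libraries were low and close to each other, while control replicate 6 was far above the other 3. The means were 6335 ± 4132 (SD, n = 4) and 1765 ± 79.4 (SD, n = 2), a 3.59-fold lower mean and a log2 difference of -1.66 (SE 0.44, limma adjusted p = 0.135). With the muscle marker level as a covariate the difference of Pdk4 was -0.22 (log2 level) or -0.70 (linear level). Pdk2 had 3337, 3396, 2657 and 4104 against 1253 and 1975, a log2 difference of -1.08 (SE 0.23, limma adjusted p = 0.0814). Pdk1, an isoform induced by hypoxia, overlapped between the groups, at 658 to 1044 against 642 and 922 (log2 difference -0.14, SE 0.23). Pdk3 was the only one of the 43 members that was higher without overlap, with 149.9, 100.3, 131 and 143 in the controls and 205 and 154 in Steap4AKO (log2 difference 0.45, SE 0.27, limma adjusted p = 0.415). The gap between its highest Steap4f/f and its lowest Steap4AKO value was narrow.

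Values per kilobase of merged annotated exon compare genes only roughly, because the merged length can exceed that of the transcripts made. On this scale the 4 kinases summed to 2283, 2386, 2442 and 5020.4 in the controls and to 1077 and 1290.1 in Steap4AKO. Pdk2 and Pdk4 made up most of this sum in every library. Pdk4 took 45.3, 49.8, 59.1 and 70.7% of it in the controls and 48.2 and 37.7% in Steap4AKO, so that its share overlapped between the groups. Pdk3 took 1.11 to 2.56% in the controls and 7.41 and 4.67% in Steap4AKO, and Pdk1 2.31 to 5.88% against 7.66 and 9.19%. The shares of these 2 minor isoforms did not overlap. Relative to Pdha1 on the same scale, the kinase sum was 0.974, 1.08, 0.94 and 1.88 in the controls and 0.958 and 0.679 in Steap4AKO, and Steap4AKO replicate 2 lay within the control values.

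**Figure D2:**
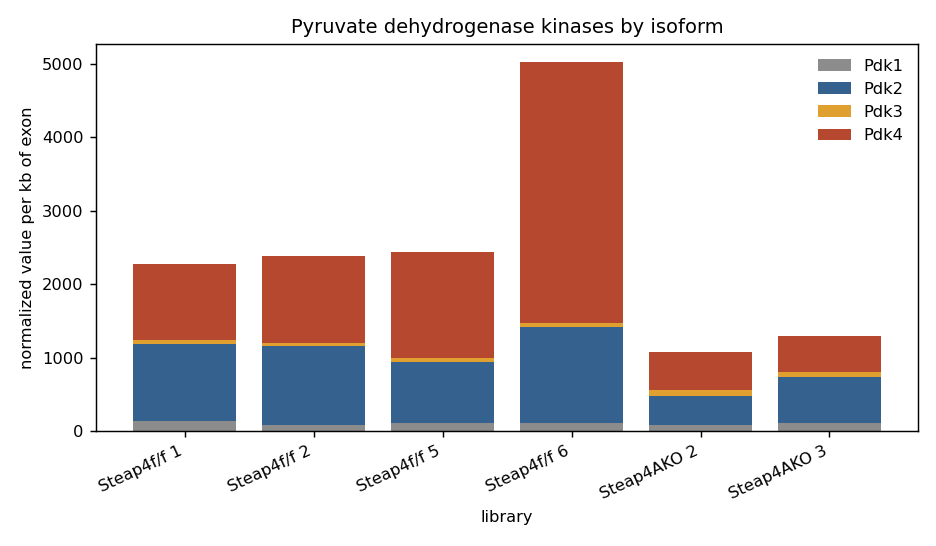
Stacked bars of the deposited normalized value per kilobase of merged exon for Pdk1, Pdk2, Pdk3 and Pdk4 in each library. The sum is 2283 to 5020.4 in the 4 controls and 1077 and 1290.1 in Steap4AKO, and the Pdk4 bar of control replicate 6 is the tallest part.

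The phosphatases that reactivate the complex were expressed at low values. Pdp1, the catalytic isoform stimulated by calcium, had 386, 304, 423 and 414 in the controls and 270.0 and 284 in Steap4AKO, lower without overlap (log2 difference -0.45, SE 0.20). Pdp2, the other catalytic isoform, had 210.2, 122, 173 and 171 against 160.2 and 285, with Steap4AKO replicate 3 the highest and replicate 2 inside the control range. The regulatory subunit Pdpr had 108, 178, 222 and 203 against 261 and 190.5, and the groups overlapped. The log2 differences of Pdp2 and Pdpr were 0.36 (SE 0.32) and 0.37 (SE 0.33).

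Pyruvate carboxylase, Pcx (chromosome 19, 4510472 to 4621752), had the highest level of the members, both as deposited and per kilobase of exon. Its values were 32249, 25282, 24172 and 21081 in the controls and 16192 and 23144 in Steap4AKO. Replicate 3 of Steap4AKO lay above control replicate 6, and the log2 difference was -0.39 (SE 0.24, limma adjusted p = 0.419). Per kilobase the control mean of Pcx was 5406 against 2866 for Mpc1 and 2457 for Pdha1.

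The enzymes from citrate to succinate had lower means in all 10 genes, and 8 of them did not overlap. Over all genes, 47.8% had a lower mean and 14.4% were lower without overlap. Cs, citrate synthase (chromosome 10, 128337734 to 128362479), had 13516, 14268, 15073 and 14869 in the controls and 7049 and 10959 in Steap4AKO. Its means were 14432 ± 699.6 (SD, n = 4) and 9004 ± 2764 (SD, n = 2), a log2 difference of -0.71 (SE 0.20, limma adjusted p = 0.144). The 4 control values of Cs lay within 1.115-fold of each other (highest over lowest), and both Steap4AKO values were below them.

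The 3 subunits of the NAD-dependent isocitrate dehydrogenase, which sets the pace of the cycle, were all lower without overlap (14.4% of all genes). Idh3b (chromosome 2, 130279309 to 130284547) had 5020.4, 4278, 4519 and 4729 in the controls and 1830.0 and 3249 in Steap4AKO (log2 difference -0.92, SE 0.22, limma adjusted p = 0.106). Idh3g had 5228, 4036, 4418 and 5648 against 1940.0 and 3435 (log2 difference -0.89). The catalytic subunit Idh3a had 6238, 7488, 7632 and 9146 against 4133 and 5496 (log2 difference -0.66), with control replicate 6 the highest and replicate 1 the lowest of the controls. The ratio of Idh3a to Idh3g was 1.19, 1.86, 1.73 and 1.62 in the controls and 2.13 and 1.60 in Steap4AKO, so that this ratio overlapped between the groups.

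Idh2, the NADP-dependent enzyme of the matrix, overlapped between the groups, with 3504, 3609, 4042 and 4367 in the controls and 1835 and 3853 in Steap4AKO. Replicate 3 was at the control level and replicate 2 far below it. Ogdh, the E1 subunit of the oxoglutarate dehydrogenase complex, overlapped as well, at 9651 to 14613 against 7112 and 10279, while Dlst, its E2 subunit, did not, at 4723 to 5878 against 2635 and 4375. Their log2 differences were -0.43 (SE 0.22) and -0.61 (SE 0.21).

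Succinyl-CoA ligase pairs a common alpha subunit, Suclg1, with a beta subunit that makes ATP (Sucla2) or GTP (Suclg2). Sucla2 had 3504, 4037, 4495 and 4927 in the controls and 2237 and 3246 in Steap4AKO, and Suclg2 had 1965, 1465, 1495 and 1585 against 791 and 1305. Both were lower without overlap, with log2 differences of -0.64 and -0.67. Suclg1 was at 2830.2 to 4089 against 1500.1 and 2367 (log2 difference -0.81). Per kilobase of exon the Suclg2 level was 0.484, 0.313, 0.287 and 0.278 of that of Sucla2 in the controls and 0.305 and 0.347 in Steap4AKO. This balance of the beta subunits overlapped between the groups (log2 ratio difference -0.03, exact two-sided permutation p = 0.933).

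Complex II oxidizes succinate and is both a cycle enzyme and a part of the respiratory chain. It was lower without overlap in 3 of its 4 subunits, a pattern of 14.4% of all genes. Sdhb, the iron-sulfur subunit (chromosome 4, 140961203 to 140979193), had 3468, 3209, 3303 and 4228 in the controls and 1432 and 2527 in Steap4AKO (log2 difference -0.89, SE 0.23, limma adjusted p = 0.128). Sdha, the flavoprotein subunit (chromosome 13, 74322254 to 74350280), had 11988, 10258, 12770.4 and 11275 against 5445 and 10958. For Sdha the Steap4AKO libraries were far apart, with replicate 3 inside the control range. The log2 difference of Sdha was -0.58 (SE 0.27, limma adjusted p = 0.300), and in Steap4AKO replicate 3 alone it was -0.07, while Sdhb was at -0.48 there. The membrane anchors Sdhc and Sdhd were at 3006 to 4101 and 2391 to 2870.1 in the controls, and at 2036 and 2800.3, and 1524 and 1991, in Steap4AKO.

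The ratio of Sdhb to Sdha, as deposited, was 0.289, 0.313, 0.259 and 0.375 in the controls and 0.263 and 0.231 in Steap4AKO, and the groups overlapped (log2 ratio difference -0.31, exact two-sided permutation p = 0.267). The 4 assembly factors of complex II had smaller differences than its subunits, from -0.38 to -0.03. Sdhaf2, which helps flavin attach to Sdha, had 1013, 825, 760.2 and 894 in the controls and 793 and 729 in Steap4AKO. Sdhaf4 had 230.4, 192, 219 and 176 against 184 and 131. Both overlapped between the groups. Sdhaf1, needed for the iron-sulfur clusters of Sdhb, was lower without overlap by a small margin, at 369 to 412 against 303 and 349.9, and Sdhaf3 overlapped, at 132 to 164 against 153 and 132.

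Fumarase and the mitochondrial malate dehydrogenase, the last steps of the cycle, had the largest median difference of the roles with more than 1 member, at -0.88. Fh1 (chromosome 1, 175600374 to 175625635) had 4277, 3181, 3978 and 3662 in the controls and 1608 and 2271 in Steap4AKO. The means were 3774 ± 468 (SD, n = 4) and 1939 ± 469 (SD, n = 2), and the log2 difference was -0.97 (SE 0.19, limma adjusted p = 0.0658). Mdh2 (chromosome 5, 135778480 to 135790398) had 8692, 8116, 8025 and 9019.6 against 4242 and 5669, a log2 difference of -0.79 (SE 0.16, limma adjusted p = 0.0748). In Steap4AKO replicate 3 these genes were at -0.72 and -0.58, the lowest of the 16 genes of the matrix cycle and complex II in that library. All 16 of these genes had lower means in Steap4AKO, 13 of them without overlap, with a median log2 difference of -0.67. Over all genes, 47.8% had a lower mean and 14.4% were lower without overlap. All 16 were also lower in Steap4AKO replicate 2 than in replicate 3, a share not taken over all genes.

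**Figure D3:**
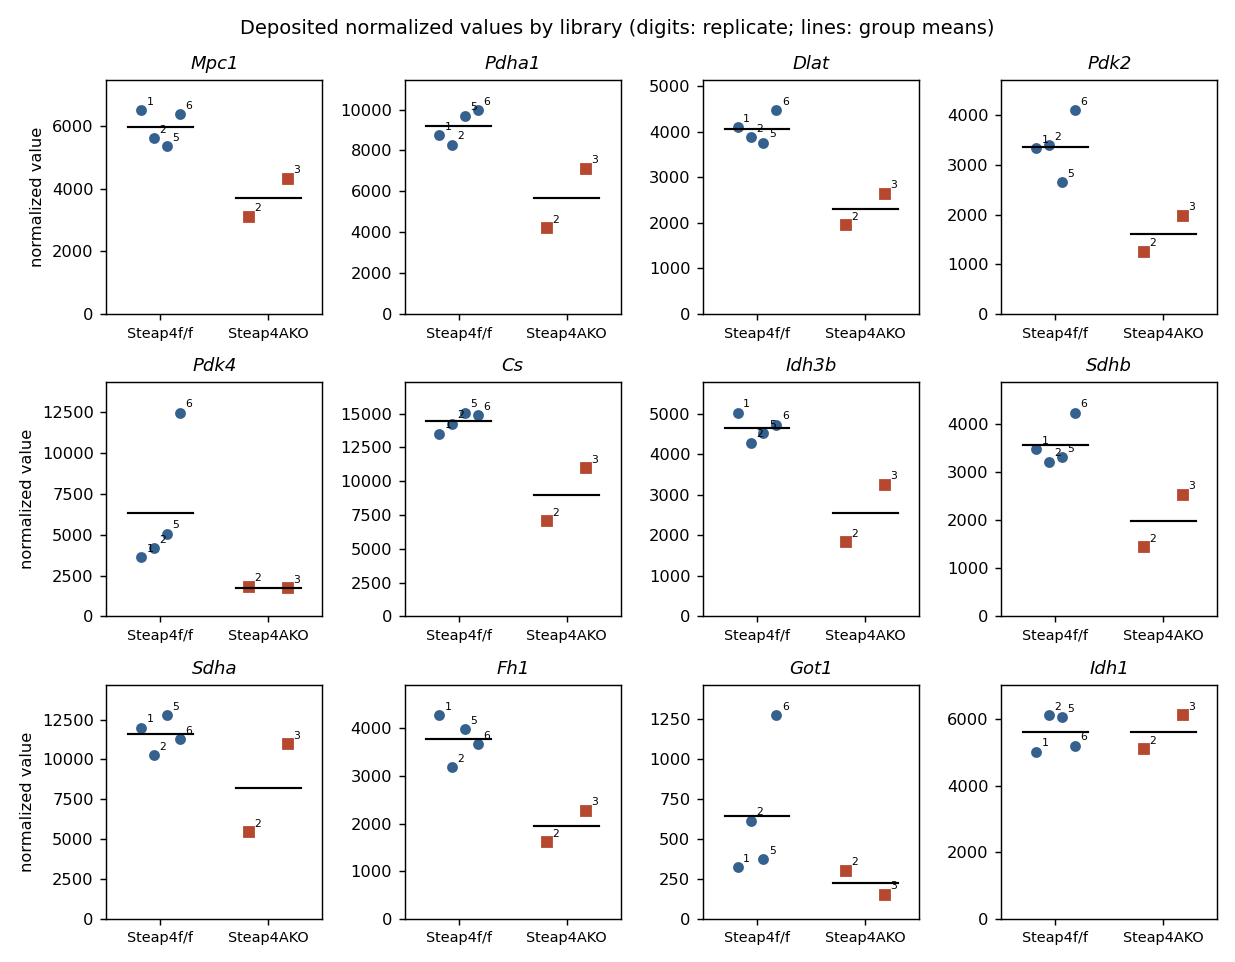
Deposited normalized values of 12 members by library, with an axis from 0 in each panel, a digit for the replicate and a line at the group mean. For 10 of the 12, all but Sdha and Idh1, both Steap4AKO points lie below every control point.

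The malate-aspartate shuttle moves electrons of cytosolic NADH into the matrix with a malate dehydrogenase and an aspartate aminotransferase on each side of the membrane. Mdh1, the cytosolic dehydrogenase (chromosome 11, 21556787 to 21572367), had 8469, 10056, 9569 and 10681 in the controls and 6925 and 7433 in Steap4AKO, lower without overlap (log2 difference -0.43, SE 0.15, limma adjusted p = 0.204). The ratio of Mdh1 to Mdh2 was 0.974, 1.24, 1.19 and 1.18 in the controls and 1.63 and 1.31 in Steap4AKO, with both Steap4AKO libraries above all controls. Got1, the cytosolic aminotransferase (chromosome 19, 43499752 to 43524605), had 321, 613, 374 and 1272 in the controls and 301 and 149 in Steap4AKO. It was lower without overlap, but Steap4AKO replicate 2 was close to control replicate 1 (log2 difference -1.38, SE 0.55, limma adjusted p = 0.246). Its difference was -0.31 (SE 1.09) with the log2 muscle level as a covariate and -0.28 with the linear one. Got2, the mitochondrial aminotransferase, had 777, 1609.9, 1157 and 2612 against 1435 and 963, with both Steap4AKO libraries inside the control range.

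The ratio of Got1 to Got2 was 0.414, 0.381, 0.323 and 0.487 in the controls and 0.21 and 0.156 in Steap4AKO, a log2 ratio difference of -1.13. Of 8 ratios of partners compared, those of Mdh1 to Mdh2 and of Got1 to Got2 did not overlap between the groups. Each had an exact two-sided permutation p of 0.133, the smallest that 4 libraries against 2 can give, and an adjusted p of 0.427 over the 8 ratios. The log2 ratio difference of Got1 to Got2 was -1.35 without Steap4AKO replicate 2 and -0.92 without replicate 3. The ratios of Pdk4 to Pdk2, Pdk4 to Pdha1 and Idh1 to Idh2 overlapped, with log2 differences of -0.57, -0.91 and 0.54. Without Steap4AKO replicate 2 the differences for Mdh1 to Mdh2 and Idh1 to Idh2 were 0.20 and 0.14, and without replicate 3 they were 0.51 and 0.94.

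Idh1, the NADP-dependent isocitrate dehydrogenase of the cytosol and peroxisomes (chromosome 1, 65158616 to 65186500), had 5022, 6117, 6063 and 5209 in the controls and 5098 and 6119 in Steap4AKO. Steap4AKO replicate 2 lay inside the control range and replicate 3 level with its top, and the log2 difference was 0.00 (SE 0.15, limma adjusted p = 0.998). Glud1, glutamate dehydrogenase, which feeds the cycle with oxoglutarate, had 5407, 5209.6, 5592 and 6332 against 5028 and 6014 (log2 difference -0.03, SE 0.15), with replicate 2 just below the controls and replicate 3 among them. Gpt2, the mitochondrial alanine aminotransferase, was at 3230.4 to 4151 in the controls and at 2146 and 4444 in Steap4AKO, so that replicate 2 lay below and replicate 3 above all controls. The difference of Gpt2 was -0.20 with both libraries and 0.33 without replicate 2.

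Among the malic enzymes, the NAD-dependent Me2, on its mean a higher member, had 289, 226, 204 and 197 in the controls and 414 and 263 in Steap4AKO. Replicate 2 was above the controls and replicate 3 among them, a log2 difference of 0.54 (SE 0.26, limma adjusted p = 0.321) that was -0.37 with the log2 muscle level as a covariate. The NADP-dependent mitochondrial Me3 was the lowest member per kilobase, with 45.4, 103, 104 and 163 against 36.8 and 21.9. By genotype alone it had the largest difference of the members (log2 difference -1.70, SE 0.53, limma adjusted p = 0.178), and the groups did not overlap. With the log2 muscle level as a covariate the difference of Me3 was -0.61 (SE 1.04), smaller than those of Sdhaf4 and Fh1, and with the linear level -0.84.

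Of 36 other genes of these pathways in the table, out of 37 listed, 0 passed the threshold (limma, adjusted p under 0.05), against 0.473% of all genes. At an unadjusted limma p under 0.05, 11 were lower and 3 higher, against 9.66% and 8.45% of all genes. Without overlap, 12 were lower and 3 higher, against 14.4% and 14.1% of all genes. The counts of higher genes were not above these shares. The median log2 difference of the 36 genes was -0.38. The largest lower differences were those of Pck1, the cytosolic phosphoenolpyruvate carboxykinase of glyceroneogenesis, and Slc25a12, the aspartate-glutamate carrier of muscle and brain. Pck1 had 41905, 45198, 53848 and 77119.5 in the controls and 12012 and 35451 in Steap4AKO. Slc25a12 had 522, 836, 759.7 and 1480.2 against 460.0 and 276 (log2 difference -1.23). The largest higher differences were those of Ogdhl, a paralog of Ogdh, and Slc25a13, the other aspartate-glutamate carrier. Slc25a13 had 15, 7.2, 4.3 and 10.4 in the controls and 104.7 and 54.8 in Steap4AKO (log2 difference 3.02, SE 0.67, limma adjusted p = 0.0897), and Ogdhl had 7.8, 0, 7.1 and 25.4 against 116.1 and 39.6. Both were low but above every control in both Steap4AKO libraries. Slc25a12 was below and Slc25a13 above all controls in both Steap4AKO libraries.

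The spread within the controls was small for most members and large for 4. The highest Steap4f/f value of Pdk4, Got1, Got2 and Me3 was 3.43, 3.96, 3.36 and 3.60 times the lowest, while this ratio was at most 2.05 in the other 39 members. For all 4 the highest library was replicate 6 and the lowest replicate 1, which are also the controls with the most and the least skeletal muscle marker RNA (20 markers summed, 5.56-fold apart). Across all members the median log2 difference between these controls, replicate 6 minus replicate 1, was 0.09. Among the 27 members that were lower without overlap it was 0.12. These 27 were picked by the same control values, so the second median is no independent check. The median log2 difference of the members between Steap4AKO replicate 3 and control replicate 1 was -0.30. The summed muscle markers of these libraries were 7.11-fold apart, and the part of muscle RNA in this difference was not tested.

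**Figure D4:**
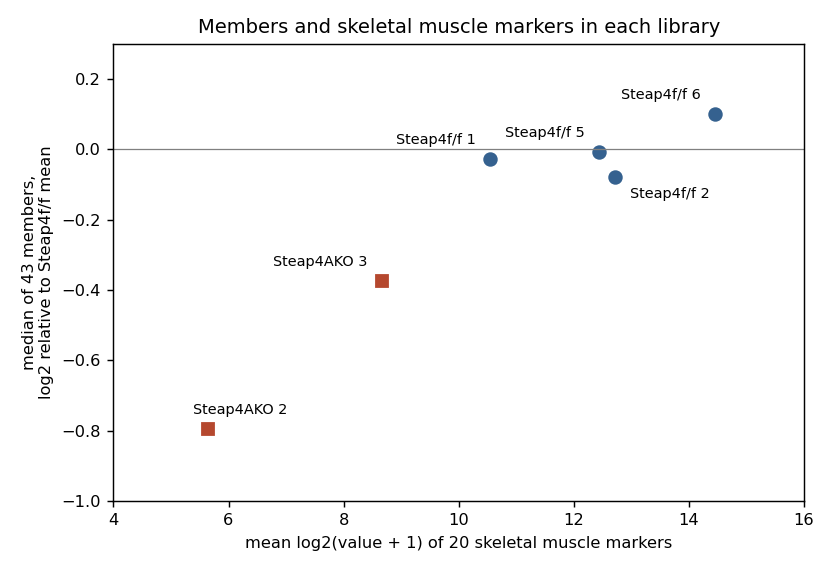
Median over the 43 members of the log2 value relative to the control mean (vertical axis) against the mean log2(value + 1) of 20 skeletal muscle markers (horizontal axis), 1 point per library. The 4 Steap4f/f points lie between -0.08 and 0.10 over muscle levels of 10.6 to 14.5, and the Steap4AKO points, at -0.37 and -0.79, have the lowest muscle levels, 8.66 and 5.64.

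The mean log2 level of the muscle markers correlated with genotype across the 6 libraries at -0.87, a description of 6 libraries that fall into 2 groups, and their mean linear level at -0.65. All 4 controls had more muscle marker RNA than both Steap4AKO libraries, so the part of each in the differences cannot be told apart. With this level as a covariate, the median log2 difference of the members was -0.16, 28 were lower and 15 higher, 2 had an unadjusted limma p under 0.05 (4.32% of all genes were lower at that p) and the lowest adjusted p was 0.541. The members with these 2 p-values were Mpc2 (-0.83, SE 0.30) and Sdhaf4 (-1.05, SE 0.43), and Fh1 was at -0.86 (SE 0.39). Pdha1, Idh3a, Ogdh and Sdhc were at -0.10, 0.08, 0.43 and 0.21, and Got2 at 0.90 (SE 0.79). Of the 38 members with a lower mean, 30 moved toward 0 by over 1.5 times or to above 0 with this covariate, and 3 moved away from 0 by over 1.5 times. The errors were wider than without the covariate, at 0.39 against 0.19 for Fh1. With the linear mean of the same markers as the covariate, an alternative added after seeing the data, the median was -0.41, 11 members were lower at an unadjusted limma p under 0.05 (7.92% of all genes), and of the same 38 members 11 moved toward 0 and 3 away from it by over 1.5 times. The part of muscle RNA, and that of the epididymal and macrophage RNA of Steap4AKO replicate 2, in the differences was not tested.

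**Figure D5:**
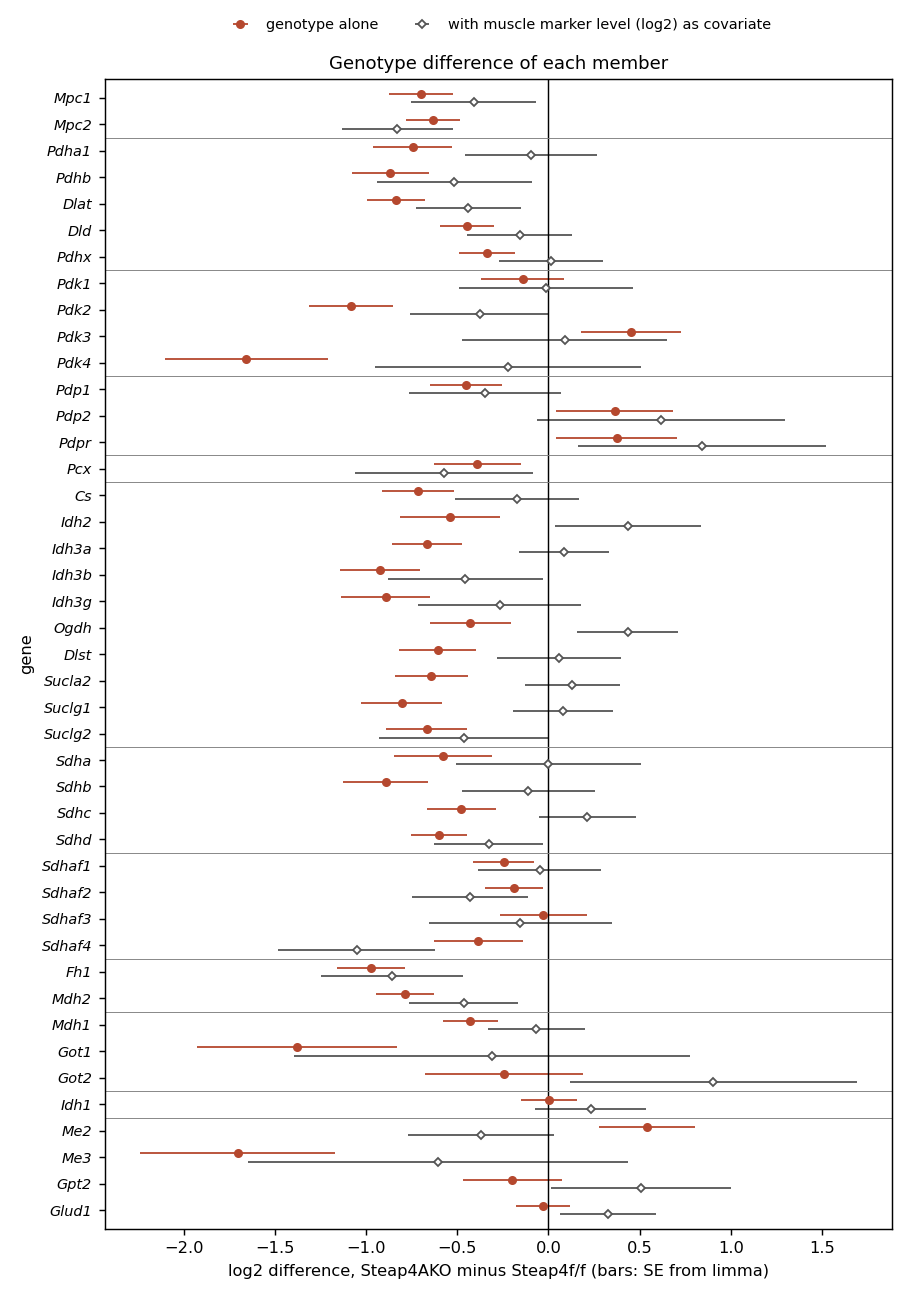
Log2 difference of each member (Steap4AKO minus Steap4f/f) with its SE from limma, by genotype alone (filled circles) and with the mean log2 level of the muscle markers as a covariate (open diamonds). The median moves from -0.58 to -0.16, the error bars widen, and Ogdh, Idh2 and Got2 are among those above 0 with the covariate.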

How the data were processed

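Total RNA of 6 iWAT libraries was sequenced. The deposited table holds a signal per gene, which the authors name DESeq2-normalized counts. The submitters' processing notes list, without roles, the tools DESeq2 1.12.4, STAR 2.7.0e, R 4.2.0 and RSEM 1.3.3, and as builds mm10 and GRCm38. Of annotation and strandedness, neither is stated there. The values are not whole multiples of 1 read (40.0 to 54.9% of low values lay within 0.1 of a whole multiple of each column's best step), so counts were not modelled and the depth is unknown. RSEM's estimates divide reads between near-identical copies, if it made these values. Symbols, positions and merged exon lengths came from GENCODE M21 on GRCm38, and 15125 of 15176 identifiers had a symbol.

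Genotypes were compared with limma 3.58.1 on log2(value + 1) (R 4.3.3, intensity trend, two-sided) over all 6 libraries and the 15006 genes with a mean of at least 10. The fit was tested on simulated data. P-values were adjusted by Benjamini-Hochberg over all genes, with a threshold of 0.05. Partner ratios were compared by exact permutation with scipy 1.17.1, and figures were drawn with matplotlib 3.10.9. The members and lists were chosen with earlier results of these data known, and the promoter motifs after the values were seen. Values by library are given for the largest difference and the highest mean of each role, for higher members and for partners in a ratio; Mpc2, Dlat, Dld, Pdhx, Pdk1, Ogdh, Dlst, Suclg1, Sdhc, Sdhd, Sdhaf1, Sdhaf3 and Gpt2 are given by range. Adipocyte, thermogenic, macrophage, stromal, endothelial, subcutaneous, visceral, epididymis and muscle marker lists were examined. Of them, 8 of the 20 muscle markers passed the threshold, all lower, and 0 of the other lists; summed values in Steap4f/f against Steap4AKO were 3437 to 6855 against 1537 and 2715 for 8 thermogenic, 83940 to 103191 against 61761 and 67275 for 7 stromal, 17623 to 18947 against 19350 and 21409 for 5 endothelial and 3594 to 4453 against 1307 and 3260.2 for 6 subcutaneous markers. Lower without overlap were 2 of the 8 thermogenic, 5 of the 7 stromal and 4 of the 6 subcutaneous markers (14.4% of all genes). Higher without overlap were 2 of the 5 endothelial markers (14.1% of all genes). Alternatives were other pseudocounts, filters, scalings, weights, thresholds, muscle covariates and each library left out.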

Additional observations from a re-analysis of the deposited data

How the results depend on the processing

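No paired analysis was possible because the groups share 1 replicate number. The count of members past the threshold was 0 under all pseudocounts, filters, scalings, weights and covariates tried, 4 at a threshold of 0.10 (410 of 15006 genes passed there), and 0 to 15 when 1 library was left out, 15 without Steap4AKO replicate 3. The median log2 difference, -0.58, was -0.39 with libraries rescaled to the same summed value, which moved the median of all genes to 0.21, -0.16 with the log2 muscle covariate, -0.41 with the linear one, and -0.79 to -0.37 when 1 library was left out. The count lower without overlap, 27, was 20 with the same summed value (7.67% of all genes, against 14.4%), 27 or 28 under the other scalings (13.1 to 15.2%) and 28 to 34 with a library left out (16.7 to 28.6%). Of all genes tested, 71 passed the threshold, and 1 to 821 under the alternatives. The count of partner ratios without overlap, 2, was 2 to 5 with a library left out. Leaving out a library can only keep or raise this count, so the rise is not a stronger result.

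Of 838 alternatives for single genes and ratios, 783 kept their direction and side of the threshold or moved by less than the control SD. Of the others, 36 changed sign, 4 moved further and the rest passed the threshold with Steap4AKO replicate 3 left out. The cause was not tested. No member passed the threshold in the main fit, so none could fall below it, and for genes a change in size alone was not counted. Pdk4, at -1.66 by genotype alone and at -0.22 with the log2 muscle covariate, is among the 783. Scalings changed the sign of Sdhaf3 (0.00088 with the upper quartile, 0.15 with the same sum), Idh1 (-0.016 by TMM), Glud1 (0.10 by quantiles, 0.15 with the same sum) and Pdk1 (0.042 with the same sum), and array weights that of Idh1 (-0.044). With the log2 muscle covariate Pdhx was at 0.013, Idh2 at 0.44, Idh3a at 0.083, Ogdh at 0.43, Dlst at 0.058, Sucla2 at 0.13, Suclg1 at 0.080, Sdhc at 0.21, Got2 at 0.90, Me2 at -0.37, Gpt2 at 0.51 and Glud1 at 0.33. With the linear covariate Got2 was at 0.67, Idh1 at -0.0074 and Glud1 at 0.10. With 1 library left out the ranges were -0.13 to 0.13 for Idh1, -0.14 to 0.080 for Sdhaf3, -0.53 to 0.056 for Got2, -0.16 to 0.098 for Glud1, -0.40 to 0.12 for Pdk1, -0.72 to 0.33 for Gpt2, -0.051 to 0.78 for Pdp2 and -0.12 to 0.16 for the log2 ratio of Suclg2 to Sucla2.

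Depth is unknown, and the number of Steap4AKO libraries limits the precision. With 1 of them left out the lone library is assumed to vary like the controls.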

Other observations

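The 31 members with a control mean of at least 1000 had a median log2 difference of -0.64, and 23 of them were lower in Steap4AKO without overlap. The 12 members under 1000, a limit set after the values were seen, had a median of -0.17, and 4 of them were lower without overlap. These 12 include Pdk3, Pdp2, Pdpr and Me2, with higher means in Steap4AKO, and also Me3 and Got1, with log2 differences of -1.70 and -1.38. Over all genes tested, 14.4% were lower without overlap, and 15.9% of those with a mean of at least 50. No such share was taken over all genes at the limit of 1000, and the split by level was not tested.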
